A study of Mus musculus with 6 samples.

Results

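Psmc3ip is the gene described here, together with 4 partners in homologous recombination: Dmc1, Brca1, Brca2 and Rad54l. All probes that carried one of these 5 gene names were taken, and 9 probes on the array did: 1 for Dmc1 and 2 for each other gene. The array names 19100 genes in all. The members were selected on the measured fl26 ratio: Psmc3ip was chosen because its log2 ratio in the fl26 line was low, and the partners for their role beside it. Its fl26 values, and those of its partners in the same comparison, are therefore given as a description with no test. The question was whether the low Psmc3ip value in fl26 extended to the partners.

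RNA of mouse ventral prostate, all of the FVB strain, was compared on 6 two-colour arrays. The red dye carried fl26, a line transgenic for full-length 15-LOX2 (2.5 months old), or svb9, a line transgenic for its splice variant b (2.5 months), or old wild type mice (15 months). The green dye carried young wild type mice of 2.5 months on every array. Each of the 3 groups had 2 arrays, which the design text calls biological replicates from separate sets of samples. 15-LOX2 is a lipoxygenase that oxidizes arachidonic acid. Each transgene is represented by 1 line, the promoter behind it is not named in the labels, and every array used the same dye order. A dye effect and a group effect therefore cannot be told apart in a ratio to young wild type. The labels speak of pools of 3 mice and the design text of 6 mice. In pooled tissue, fewer cells of a type and less RNA per cell cannot be told apart.

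Homologous recombination repairs a DNA double strand break by copying an intact partner molecule. A recombinase, such as Dmc1 in meiosis, coats the cut single strand and searches for the matching sequence. Brca2 loads the recombinase onto the strand, Brca1 acts earlier in preparing the break, and Rad54l is a DNA motor that helps the coated strand invade. Psmc3ip, also called Hop2, pairs with Mnd1 and stimulates strand invasion by Dmc1, and it is also known as a protein that binds nuclear hormone receptors. Its best known role is in the germ line, and Dmc1 is known as a meiotic protein. These roles are textbook background and no result of these arrays.

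Sequences of the probes were not used here. The 250 bases before the annotated start of Psmc3ip and of Brca1 are shown because these 2 members lie on chromosome 11, and the genes between them were used below to ask whether the low value covered the neighbourhood. Sequences are RefSeq's (GRCm38.p6), written 5′ to 3′ in the direction of the gene. Capitals mark CCAAT, the core of a CCAAT box, and CCGGAAG, a core of ETS family sites, on either strand.
Psmc3ip (chr11:101095436-101095685, minus strand): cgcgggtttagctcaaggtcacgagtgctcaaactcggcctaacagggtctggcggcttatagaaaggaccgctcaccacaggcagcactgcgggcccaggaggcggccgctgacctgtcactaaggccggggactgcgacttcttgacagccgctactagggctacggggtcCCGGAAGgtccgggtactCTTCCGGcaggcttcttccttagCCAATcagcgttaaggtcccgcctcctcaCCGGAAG
Brca1 (chr11:101551956-101552205, minus strand): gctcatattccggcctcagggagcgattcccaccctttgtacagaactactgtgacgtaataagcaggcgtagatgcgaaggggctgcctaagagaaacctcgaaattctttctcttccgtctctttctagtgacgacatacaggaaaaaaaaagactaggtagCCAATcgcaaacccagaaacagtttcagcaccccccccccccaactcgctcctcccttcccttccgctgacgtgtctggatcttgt

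Psmc3ip held 3 matches of CCGGAAG, whose first bases lay 77, 59 and 7 bases before the start, the middle one on the opposite strand. Brca1 held none. Of 32817 windows of this length before annotated mouse starts, 6.9% held at least 1 match and 33 (0.101%) held at least 3. CCAAT was found once in Psmc3ip, 36 bases before its start, once in Brca1 and once in Rad54l, and in none of the windows of Dmc1 and Brca2. The share of all windows with CCAAT was 33.8%. Dmc1 and Rad54l each held 2 matches of GGGCGG, a GC box found in 32.7% of windows, and Brca2 held 1 match of TGACGTCA, a cyclic AMP response element found in 1.55%. The motifs did not overlap one another, they were chosen after the sequences were seen, and a match is a description of letters only.

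The arrays differed in signal. Of the red spots, 17620 to 27150 (of 41174 probes) were well above background on the fl26 arrays, 14617 to 27832 on the svb9 arrays and 3218 to 13597 on the old wild type arrays, against 24835 to 30381 in the green young wild type channel. No spot of a member was saturated or called an outlier by the scanner software. A probe was tested if at least 1 group had both of its arrays well above background in 1 and the same dye, which held for 27858 probes. Of the 9 member probes, 4 passed: both of Psmc3ip, 1 of Brca1 and 1 of Brca2.

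After loess normalization, Psmc3ip was low in the fl26 line, while svb9 and old wild type lay near young wild type. The old wild type value depended on that normalization, as described below. Its brighter probe had a log2 ratio over young wild type of -2.49 and -1.79 on the fl26 arrays, 0.23 and 0.02 on the svb9 arrays, and 0.03 and -0.20 on the old wild type arrays. The 2 fl26 arrays lay apart from the other 4, which spanned -0.20 to 0.23. The fl26 mean was -2.14 ± 0.17 (limma SE, n = 2 arrays), a level 22.7% of young wild type.

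The second Psmc3ip probe, dimmer than the first, gave log2 ratios of -1.41 and -0.99 in fl26, 0.22 and -0.13 in svb9, and 0.13 and 0.06 in old wild type. Again both fl26 arrays lay below all other arrays. Its fl26 mean was -1.20 ± 0.13 (limma SE, n = 2), 43.6% of young wild type. The probes thus had the same order of groups and differed in size in fl26.

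The size differed between ways of taking the ratio. An offset of 50 was added to both channels before the ratio was taken, which pulls ratios of dim spots towards 0. The deposited log ratios of the scanner software, which differ in background, offset and dye normalization together, were -3.06 and -2.30 (log2 scale) for the brighter probe in fl26 and -2.02 and -1.63 for the dimmer one. On that scale their means were 6.41-fold and 3.55-fold lower in fl26 than in young wild type, against 4.40-fold and 2.29-fold in the main values. With no background correction the fl26 means were -2.05 and -1.10 on the log2 scale.

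In the loess-normalized levels, the low value lay in the fl26 channel. Normalized log2 levels of the brighter probe were 6.36 and 7.24 in fl26, 9.04 and 9.13 in svb9 and 8.84 and 8.91 in old wild type, against 8.81 to 9.11 in young wild type over all 6 arrays. The young wild type levels averaged 8.95 ± 0.15 (SD, n = 6 arrays). The dimmer probe stood at 6.28 and 6.77 in fl26, 7.73 to 8.06 in the other red channels, and 7.79 ± 0.08 in young wild type (SD, n = 6). Both probes were well above background on both fl26 arrays, so the fl26 level was measured and is not only a bound.

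As scanned, the intensities followed the strength of the red channel of each array as well. The brighter Psmc3ip probe read 239 in red over a local background of 77 on fl26 array 1, against 515 in green over 41, and 162 over 77 on fl26 array 2, against 542 in green over 43. On svb9 array 1 it read 1706 in red over 81, against 577 in green over 41, and on svb9 array 2 it read 368 over 78, against 578 over 42. On old wild type array 1 it read 98 in red over 77, against 515 in green over 43, and on old wild type array 2 it read 260 over 77, against 653 over 41. The unnormalized red reading of old wild type array 1, the array with the fewest red probes well above background, was thus the lowest of the 6.

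The kind of normalization within arrays decided the old wild type value. With each array centred on its median in place of loess, the brighter probe had log2 ratios of -1.85 and -1.97 in fl26, 0.91 and -0.62 in svb9, and -2.48 and -1.28 in old wild type. The dimmer probe had -0.96 and -1.10 in fl26, 0.80 and -0.59 in svb9, and -1.44 and -0.73 in old wild type. Under that setting fl26 and old wild type overlapped, and the svb9 arrays lay above both. Loess removes a trend of the ratio with brightness within an array and median centring does not. The scanner software's log ratios, which also follow brightness, were 0.10 and -0.18 in old wild type for the brighter probe.

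**Figure D1:**
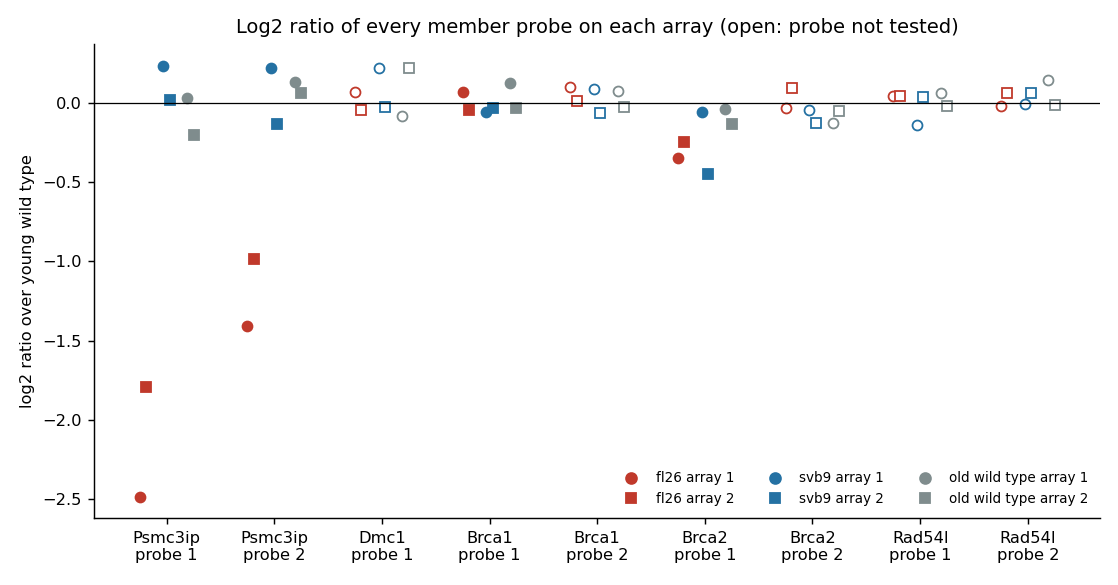
Log2 ratio over young wild type (vertical axis) of all 9 member probes (horizontal axis) on each of the 6 arrays; circles are array 1 and squares array 2 of fl26, svb9 and old wild type, and open symbols are probes that were not tested. The fl26 arrays of both Psmc3ip probes lie between -2.49 and -0.99, and every other point lies between -0.45 and 0.23.

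The svb9 and the old wild type comparisons did not choose the gene, and in them no Psmc3ip probe passed the test. The brighter probe differed from young wild type by 0.13 in svb9 (95% interval -0.28 to 0.53, limma adjusted p = 0.984) and by -0.09 in old wild type (-0.49 to 0.32, limma adjusted p = 0.876). The dimmer probe differed by 0.04 in svb9 (-0.27 to 0.36, limma adjusted p = 0.992) and by 0.10 in old wild type (-0.22 to 0.41, limma adjusted p = 0.815). For the dimmer probe, only 1 of the 2 old wild type arrays had red signal well above background.

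Set side by side without a test, fl26 minus svb9 was -2.27 on the log2 scale for the brighter probe and -1.24 for the dimmer one. Within extraction dates, fl26 array 1 minus svb9 array 1 was -2.72 for the brighter probe and -1.63 for the dimmer one. Likewise fl26 array 2 minus old wild type array 1 was -1.82 and -1.12. These are loess values. With median centring, the brighter probe was at -1.97 on fl26 array 2, against -2.48 on old wild type array 1 of the same date.

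Across all probes, limma called 14 of 27858 in fl26 (0.0503%), 8 of them lower (0.0287%), and the brighter Psmc3ip probe was 1 of the 8. Since that comparison chose the gene, nothing is read from this. Of 26014 tested probes with values on all arrays, 15 (0.0577%) had a log2 ratio below -1 on both fl26 arrays. In svb9, 0 of 27858 probes passed the limma test (0%), with 1240 (4.45%) at an unadjusted p under 0.05. In old wild type, 0 of 27624 passed (0%), with 3158 (11.4%) at an unadjusted p under 0.05. In a fit that blocked on replicate number, fl26 had 999 calls (3.59%), svb9 12 (0.0431%) and old wild type 1211 (4.38%). No member probe was among those of svb9 or old wild type. Both Psmc3ip probes and no partner probe were among the 999 of fl26, from which nothing is read either.

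Brca2, which loads the recombinase, was the partner with most signal. Its brighter probe had log2 ratios of -0.35 and -0.25 in fl26, -0.06 and -0.45 in svb9, and -0.04 and -0.13 in old wild type. All 6 arrays lay below 0, which was true of 6.92% of the 26014 tested probes with values on all arrays, and the groups overlapped. The fl26 mean was -0.30 ± 0.11 (limma SE, n = 2), the svb9 mean -0.25 (95% interval -0.51 to 0.00, limma adjusted p = 0.980), and the old wild type mean -0.09 (-0.35 to 0.17, limma adjusted p = 0.794).

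Red signal for Brca2 was well above background on 1 fl26 array and 1 svb9 array and on neither old wild type array. The log ratios of the scanner software were -0.72 and -0.69 in fl26, -0.14 and -1.32 in svb9, and -0.14 and -0.49 in old wild type. Between fl26 and svb9 the log2 difference was -0.05 ± 0.15 (limma SE), against the Psmc3ip difference of -2.27 ± 0.24. These differences are not alike in range. The young wild type level of Brca2 was 6.63 on the fl26 arrays, where the lowest red levels well above background were 5.73 and 6.33. A fall as large as that of Psmc3ip could therefore not have been measured for Brca2. The second Brca2 probe was not tested, and its ratios ran from -0.13 to 0.09.

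Brca1, the tumour suppressor that acts with Bard1 at breaks, gave log2 ratios near 0. Its brighter probe had 0.07 and -0.05 in fl26, -0.06 and -0.03 in svb9, and 0.12 and -0.04 in old wild type. No group stood apart. The mean was 0.01 ± 0.08 in fl26 (limma SE, n = 2), -0.04 in svb9 (95% interval -0.23 to 0.15, limma adjusted p = 0.990) and 0.04 in old wild type (-0.15 to 0.23, limma adjusted p = 0.863).

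For Brca1 the fl26 level has only a bound. Its red signal was not well above background on either fl26 array, while the green signal was on all 6. The bound took, per array, the higher of the probe's own red level and the lowest red level among probes well above background. It averaged 6.23 on the fl26 arrays, against a young wild type level of 6.13 there, so no fold is given. On the old wild type arrays the bound averaged 6.79. Of the 4 partners, Brca2 is the one whose fl26 level was measured, on 1 array.

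**Figure D2:**
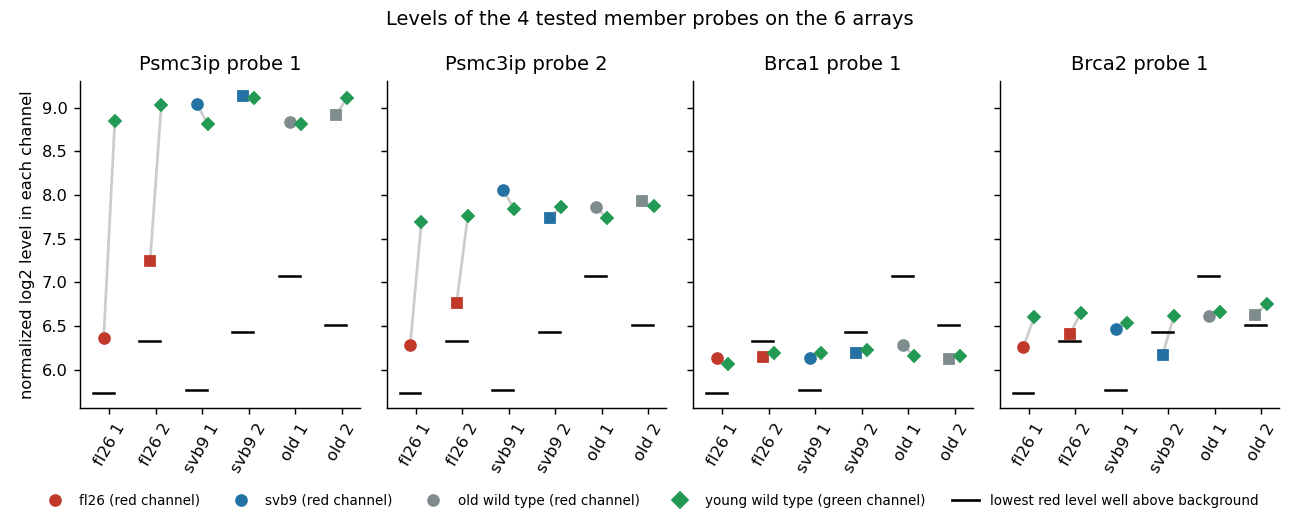
Normalized log2 level (vertical axis) of the 4 tested member probes on each array (horizontal axis), with the red channel (fl26, svb9 or old wild type) in circles and squares, the green young wild type channel in diamonds, and the lowest red level among probes well above background on that array as a black bar. The 2 fl26 points of Psmc3ip lie below their diamonds but above the bars, while the Brca1 and Brca2 points lie near or below the bars on most arrays.

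Dmc1, the meiotic recombinase, and Rad54l, the DNA motor, were at or near background. Dmc1, listed on the array under an older name, had log2 ratios of 0.07 and -0.04 in fl26, 0.22 and -0.03 in svb9, and -0.08 and 0.22 in old wild type. Its red signal was well above background on 1 of 6 arrays and its green signal on 3. The 2 Rad54l probes had ratios of -0.14 to 0.15 over all arrays, with no red spot and 1 green spot each well above background. The second Brca1 probe was well above background on no array in either channel. Together the 5 untested partner probes had red signal well above background in 1 of 30 spots and in none on the fl26 arrays. For these genes no statement on fl26 can be made at this signal.

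Other genes of the pathway are given from lists of named genes, each counted by its brightest probe. Recombinases and paralogs, mediators and BRCA complexes, end resection with RPA, and junction processing made up 39 genes besides the members. Of these, 35 were tested, and limma called none in any of the comparisons with young wild type (0 in each). Over all tested probes the share called was 0.0503% in fl26 and 0% in svb9 and old wild type. Nothing is therefore read from the lack of calls here or in the lists below. Their median log2 ratio was -0.01 in every comparison, against medians over all named genes of 0.00, 0.00 and -0.02. In fl26 the values ran from -0.49 (Sfr1, which pairs with Swi5 in recombination) to 0.33 (Brcc3, a deubiquitinase of a BRCA1 complex), none as low as either Psmc3ip probe. Red signal was well above background on both fl26 arrays for 21 of the 39. Their values ran from -0.49 to 0.33, with a median of 0.06. For genes near background a fall as large as that of Psmc3ip could not have been measured, so its absence there is not shown.

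Mnd1, the subunit that pairs with Psmc3ip, had log2 ratios of 0.02 and -0.24 in fl26, with a mean of -0.11 (limma adjusted p = 0.723), and means of -0.02 in svb9 and -0.05 in old wild type. Its red signal was well above background on 3 of 6 arrays, both fl26 arrays among them. Rad52 had 0.03 for its brighter probe and 0.15 for the other, Palb2, which links Brca1 to Brca2, had -0.02, and Rad54b, a relative of Rad54l, had -0.14, none of which passed in fl26. Rad51c, Bard1 and Rad51ap1 were not tested. The fl26 ratios of Mnd1 were closer to 0 than those of either Psmc3ip probe.

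Many meiotic genes stayed near background. Of 24 listed, 22 had a probe and 12 were tested, with a median log2 ratio of -0.05 in fl26 and no call by limma. Spo11, which makes meiotic breaks, had -0.04 and Sycp3, of the synaptonemal complex, -0.16. Hormad1, which marks unsynapsed meiotic chromosomes, had the lowest fl26 value of the list, -0.70 and -0.62 on the fl26 arrays (mean -0.66, limma adjusted p = 0.119), against means of 0.06 in svb9 and 0.30 in old wild type. It was named after its values were seen, it did not pass, and its second probe, not tested, had -0.13 and 0.01 in fl26. Of 10 germ cell markers, 6 were tested, and their fl26 ratios lay between -0.11 and 0.03. Red signal was well above background for 6 of the 10 on fl26 array 1 and for 1 on fl26 array 2. Ddx4, Stra8 and Ldhc were well above background on no array. Whether germ cell markers followed Psmc3ip cannot be told at this signal.

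Psmc3, the proteasome ATPase for which Psmc3ip is named, had a mean log2 ratio of 0.19 in fl26 (limma adjusted p = 0.742), and the 6 proteasome ATPases had a median of 0.06 with no call. Of 20 S and M phase genes, 19 were tested and none was called. Mki67, a proliferation marker, had 0.25 and -0.02 for its 2 probes, Top2a, the topoisomerase of dividing cells, 0.05 and 0.01, and Pcna, the replication clamp, 0.54 (limma adjusted p = 0.307). The median of the S and M phase list was 0.06 in fl26.

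**Figure D3:**
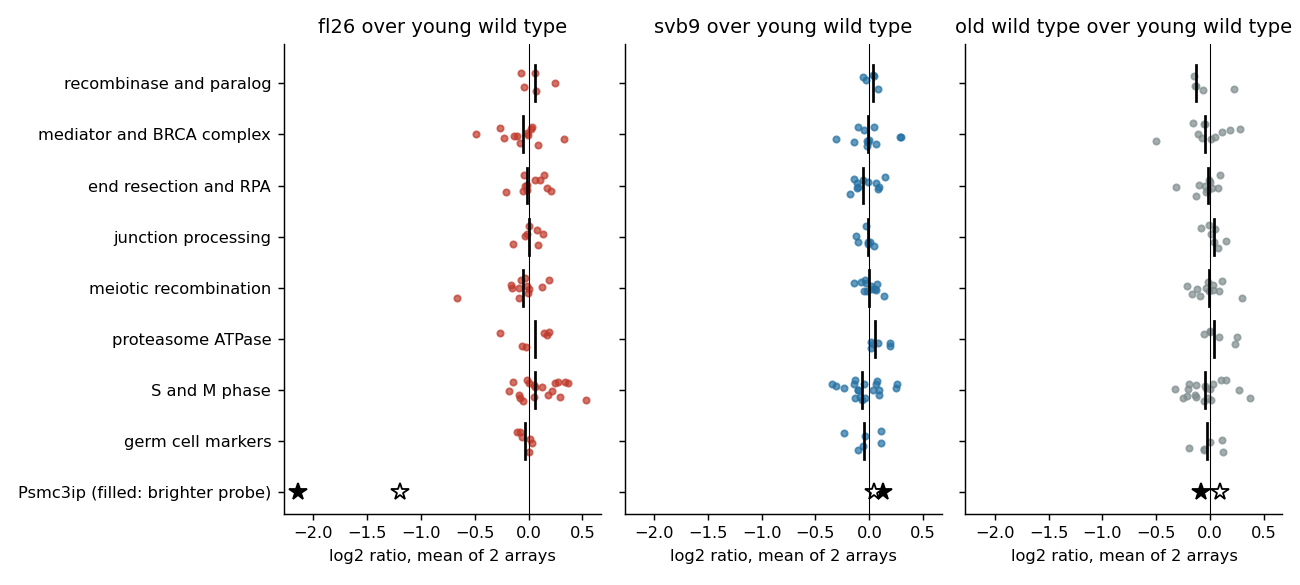
Mean log2 ratio over young wild type (horizontal axis) of every tested gene in 8 lists (rows) for fl26, svb9 and old wild type (panels); points are genes, black bars list medians, and stars the Psmc3ip probes (filled for the brighter one). In fl26 the list genes lie between -0.66 and 0.54, to the right of both Psmc3ip stars at -2.14 and -1.20. Many list genes had red signal near background, where a fall of that size may not show.

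Markers of other cells were set beside the Psmc3ip value. Basal epithelium markers were the marker list with the highest fl26 median, at 0.40, with 5 of 6 above 0 and none called. Of all named genes, 49.6% were below 0 in fl26. The summed red level of the basal markers was 6185 and 5190 in fl26 against 4090 and 3984 in young wild type on the same arrays. Other fl26 medians were 0.38 for blood, 0.31 for fibroblast, 0.23 for macrophage, 0.06 for endothelial and -0.11 for smooth muscle markers. Germ cell, T and B cell and skeletal muscle markers had medians between -0.03 and 0.07. Of 5 seminal vesicle markers only 1 was tested, at 0.02, and red signal was well above background on no array for any of them. On fl26 arrays 1 and 2 the basal median was 0.59 and 0.29, and that of the 3 blood markers 0.26 and 0.50. The fibroblast median was 0.76 and -0.13, and the macrophage median 0.32 and -0.01. The basal and blood medians were thus raised on both fl26 arrays, and the fibroblast and macrophage medians on array 1 alone. Luminal epithelium markers had a median of -0.04 in fl26 with 5 of 9 below 0, and summed to 114615 and 193066 in fl26 against 271394 and 152310 in young wild type. All 9 luminal markers, which define the labelled tissue, were well above background on both fl26 arrays. The part of cell makeup in the Psmc3ip value was not tested.

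The genes next to Psmc3ip on chromosome 11 did not share its low value. Mlx, a transcription factor gene whose annotated end overlaps that of Psmc3ip by 67 bases, had log2 ratios of -0.32 and -0.10 in fl26, and Coasy, an enzyme of coenzyme A synthesis, had -0.20 and -0.02. On the other side, Retreg3, a regulator of endoplasmic reticulum turnover, had -0.20 and -0.60 for its brighter probe and -0.22 and -0.12 for the other. Tubg1, a gamma tubulin, had 0.00 and -0.04. None of the 4 was called by limma in fl26.

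From Psmc3ip to Brca1 the reference table lists 28 genes in between. Of these, 24 had a probe and 22 were tested, and limma called 0 of them in each comparison. The share called over all tested probes was 0.0503% in fl26 and 0% in svb9 and old wild type, so nothing is read from that count. The fl26 log2 ratios of the 22 genes ran from -0.40 (Retreg3) to 0.39 (Psme3, a proteasome activator), with a median of -0.02 and 12 below 0. The low value was thus seen at 1 gene of this stretch as measured here.

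**Figure D4:**
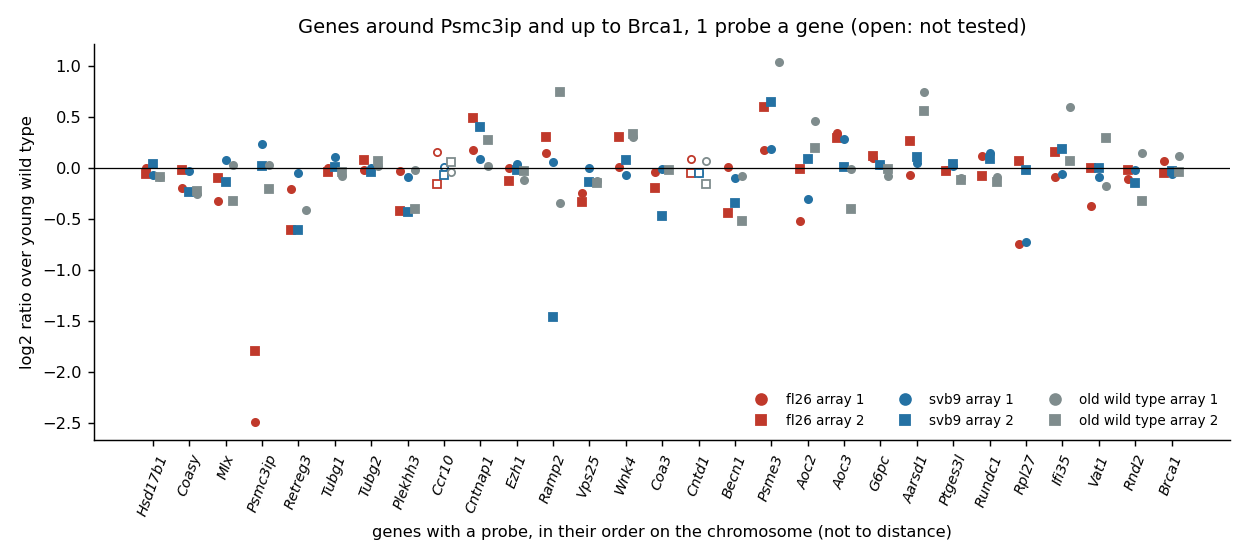
Log2 ratio over young wild type (vertical axis) of genes in chromosome order around Psmc3ip and up to Brca1 (horizontal axis, rank and not distance), 1 probe a gene, with circles for array 1 and squares for array 2 of fl26, svb9 and old wild type. Both fl26 points of Psmc3ip, at -2.49 and -1.79, lie below every fl26 point of the other genes.

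Genes with the most similar pattern were ranked by the root mean square difference of their 6 log2 ratios from those of the brighter Psmc3ip probe, over 21519 named probes with values on all arrays. The second Psmc3ip probe had rank 4 among these, at 0.56 log2 units, against a median of 1.26. The fl26 values, which chose the gene, weigh most in this difference. A probe low in fl26 therefore ranks high by construction, and nothing is read from the ranks. The 5 closest genes were Sh2d4a (0.49), Sprr2f (0.55), Creb3l4 (0.56), H2-Q10 (0.60) and Speer1 (0.60). Sh2d4a, an SH2 domain protein, had -1.68 and -1.81 in fl26, -0.37 and -0.47 in svb9, and -0.15 and -0.58 in old wild type.

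Creb3l4, a membrane-bound transcription factor of prostate epithelium, had -1.71 and -1.54 in fl26, -0.22 and -0.63 in svb9, and -0.47 and -0.77 in old wild type. H2-Q10, an MHC class I gene, had -2.45 and -1.69 in fl26, 0.10 and -0.77 in svb9, and 0.02 and -1.44 in old wild type. Sprr2f, a cornified envelope gene, had -1.59 and -0.94 in fl26, and Speer1 had -2.37 and -1.48. Red signal of Sprr2f and Speer1 was not well above background on fl26 array 2 or on either old wild type array. For Sh2d4a and Creb3l4 it was not so on old wild type array 1. Sprr2f, Speer1 and H2-Q10 belong to families of near-identical genes, so their probes may read relatives too. All 5 were also lower than Psmc3ip in the svb9 mean (-0.45 to -0.24, against 0.13 for Psmc3ip). None belongs to the recombination lists.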

How the data were processed

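Agilent's Feature Extraction software quantified the scans, per the file headers. The deposited files hold unnormalized mean spot intensity and median background intensity per channel. Their log10 red over green ratios had the background subtracted and the dyes normalized in that software, per the file headers, and the deposited series table rounds these log10 ratios. The deposited flags mark outlier, saturated and well above background spots. No steps beyond these are given in the sources used here.

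From the intensities, log2 ratios were computed in R 4.3.3 with limma 3.58.1: outlier and control spots (2256 of 43790) left out, normexp with an offset of 50, loess within each array, replicate spots averaged. Gene names came from the accession on the array through a reference gene table (GRCm38.p6) for 20716 of 41174 probes, from current symbols for 5039 and older symbols for 5279; 10140 stayed unnamed. A model of 3 group means over all 6 arrays was fitted with limma, 2-sided, with Benjamini-Hochberg adjustment over all tested probes and a threshold of 0.05. The spread is pooled over all arrays and the number of arrays limits the precision. A ratio tested against 0 leaves out the spread of young wild type pools that arrays may share. Where a group's red signal was well above background on neither array, a bound was used. It was, per array, the higher of the probe's own red level and the lowest red level among probes well above background.

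Groups share the replicate numbers 1 and 2. Deviations of same-numbered arrays from their group means correlated at 0.609 (fl26 and svb9), 0.331 (fl26 and old wild type) and 0.167 (svb9 and old wild type). Counts of calls over all probes with the number as a block are therefore given where they change. The images were extracted on 3 dates: fl26 and svb9 arrays 1 on the first, fl26 array 2 with old wild type array 1 on the second, the remaining 2 on the third.

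The fit was tested on simulated data with known changes. Members, lists, tests and alternatives were chosen with earlier results of these data known. Named were all member probes, 14 recombination and proliferation genes whatever their values (1 of them is not reported here), any list gene called, the 2 nearest measured genes on each side of Psmc3ip, and the 5 closest patterns. Figures and tables used Python 3.11.15 with pandas 2.3.3.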

Additional observations from a re-analysis of the deposited data

Results flagged for a closer look

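For the brighter Psmc3ip probe, every fl26 array lay below 0 and every svb9 array above it, and the fl26 mean minus the svb9 mean was -2.27 on the log2 scale. The difference was not tested here, because the fl26 values chose the gene, and the svb9 values of 0.23 and 0.02 lie close to 0. With median centring in place of loess, the svb9 arrays lay on both sides of 0, at 0.91 and -0.62.

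For the dimmer Psmc3ip probe, every fl26 array lay below 0 and every old wild type array above it. The means of fl26 and old wild type differed by -1.29 on the log2 scale. That difference was not tested either, and the old wild type values of 0.13 and 0.06 lie close to 0. With median centring they were -1.44 and -0.73, below 0 as in fl26. Groups of 2 arrays are too small to look for a stray array. Over the 6 young wild type levels of each of the 9 member probes, no array stood apart by Dixon's criterion.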

How the results depend on the processing

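The number of probes called depended on the settings, while the Psmc3ip value in fl26 kept its direction in all 14 alternatives. Its mean log2 ratio ranged from -2.68 to -1.79 for the brighter probe and from -1.83 to -0.99 for the dimmer one. That mean could not change where only the filter, the replicate block or an array of another group was altered. The fl26 values also chose the gene, so nothing is read from the kept direction. In svb9 and old wild type, none of 108 alternative values of the 4 tested member probes was called. In fl26 the count of 14 became 2 with no background correction, 0 with median centring, 6 with the scanner software's log ratios, 121 with a date term and 999 with the replicate block, and 0 to 1 with 1 array left out (1 without the second fl26 array and 0 for each other array). In svb9 it was 12 with the replicate block and otherwise 0. In old wild type it was 29 with the strict filter, 8 with outlier spots kept, 11 with a date term, 1211 with the replicate block and 0 to 2 with 1 array left out. For fl26 over svb9 it was 2 with a date term and 10 with the replicate block. Median centring moved the old wild type means most: the brighter Psmc3ip probe to -1.88, against -0.09 with loess and -1.91 in fl26 with median centring, the dimmer one to -1.09, against 0.10 with loess, and Brca2 to -0.42, against -0.09. None of these was called (limma adjusted p = 0.145, 0.146 and 0.176). In old wild type, Brca1 gave -0.042 with the scanner software's log ratios. With either array of the group left out, the brighter Psmc3ip probe ran from -0.202 to 0.0289 and Brca1 from -0.0357 to 0.124 in old wild type, and the dimmer Psmc3ip probe from -0.135 to 0.219 in svb9. The causes were not tested. Signal over background limits Brca1, Dmc1 and Rad54l, whose red signal was not well above background in fl26. It also limits Brca2, whose red signal was well above background on 1 fl26 array.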
